A study of Mus musculus with 2 samples.

Results

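The Slc25 genes encode the mitochondrial carriers, and GENCODE M21 lists 47 protein-coding mouse genes whose names start with Slc25a out of 21670 protein-coding genes (chromosomes 1 to 19 with X). All 47 were followed here in DNase-seq data from mouse kidney. The rule for membership uses the gene name and no measured value. DNase-seq sequences DNA where the nuclease DNase I has cut chromatin, so a peak marks accessible DNA. A footprint marks a short stretch inside accessible DNA that was cut less than its surroundings. The tissue was kidney of female B6CASTF1/J mice of 8 to 10 months, a cross of C57BL/6J and CAST/EiJ, with no treatment listed. It was measured in 2 libraries labelled as biological replicates 1 and 2. There was 1 group, with no other tissue, treatment or genotype, and both libraries carry the same donor entry although their tissue samples differ. Whether 2 animals were used is not stated, so the spread between libraries may be partly technical, and no test between conditions could be made.

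Mitochondrial carriers sit in the inner mitochondrial membrane and move metabolites, nucleotides, cofactors, phosphate and metal ions between the cytosol and the matrix. They share a fold built from repeated pairs of membrane helices, and a few members work in the outer membrane or in peroxisomes instead. The kidney tubule is among the tissues richest in mitochondria, because salt reabsorption is paid for with ATP. The carriers also serve gluconeogenesis, ammonia production and fatty acid oxidation, which are known functions of the proximal tubule.

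The labelled tissue was checked with marker genes. Of 7 tubule markers 6 had an open promoter, and Aqp2 had none. Mean signals were 5.39 at Lrp2, 5.35 at Umod, 3.03 at Slc34a1, 1.71 at Slc12a1, 1.51 at Slc12a3 and 1.17 at Slc5a2. Neither of the 2 podocyte markers was open. Of 8 markers of other cell types 2 were open, both weak, namely Alb at 0.373 and the brown-fat gene Cidea at 0.744. Ucp1, Adipoq, Cyp11a1, Cyp11b1, Myh6 and Ptprc had no promoter region. In whole tissue, accessibility in a minor cell type and weak accessibility in many cells cannot be told apart. The longer deposited peak lists held 137083 peaks in replicate 1 and 125000 in replicate 2. All signal values were whole multiples of a step (within 0.05 of a step). With that step taken as 1 tag, the depth of replicate 1 comes to 120.9 M tags and that of replicate 2 to 119.9 M.

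Open promoters were those with a region, present in both libraries, inside the 500 bases on either side of any start site (TSS) of a protein-coding transcript. Its value is the deposited signal of the strongest such region, given for each library and as the mean ± SD of the 2 libraries. The sources used here do not name the unit of the signal, and no correction for the width of a region was made.

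By this rule 40 of the 47 carrier genes had an open promoter in kidney, or 85.1%, where 63% of all protein-coding genes did. With genes that had no promoter region counted at 0, the median carrier gene had a signal of 4.81, and the median protein-coding gene 1.71. Among open promoters alone the medians were 6.31 and 4.78. Of the 40 open promoters, 14 were stronger than the upper quartile of all open promoters (8.66), where the background is 25%. Slc25a43 and Slc25a24 alone, 2 genes, lay below the lower quartile of 2.11. On the stricter deposited peak list 39 members were open, where the background is 58.9%. Each library alone gave 40, where the backgrounds are 64.5% in replicate 1 and 65.1% in replicate 2. The 7 genes without an open promoter were Slc25a2, Slc25a18, Slc25a31, Slc25a37, Slc25a41, Slc25a47 and Slc25a54.

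**Figure D1:**
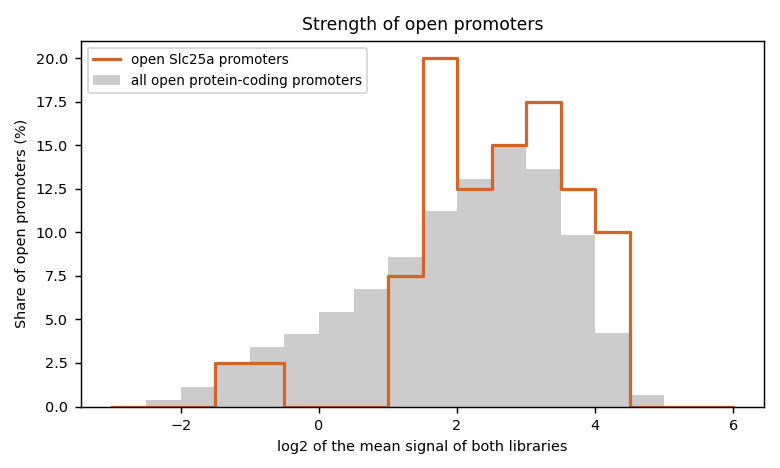
Share of open promoters (y axis, percent) by the log2 of the mean signal of both libraries (x axis, steps of 0.5). Grey bars are all 13643 open protein-coding promoters and the orange line is the 40 open Slc25a promoters, which have 2 members below a log2 signal of 1 and none above 4.5.

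Sequences from 2 open promoters are shown first, because they let the footprints be read in place. The region upstream of Slc25a28, the mitoferrin-2 gene, lies at chr19:43675001-43675200 on the minus strand of mm10 and had 4 footprints shared by both libraries. It is printed 5′ to 3′ on the strand of the gene, with the footprints in capitals.
Slc25a28 region: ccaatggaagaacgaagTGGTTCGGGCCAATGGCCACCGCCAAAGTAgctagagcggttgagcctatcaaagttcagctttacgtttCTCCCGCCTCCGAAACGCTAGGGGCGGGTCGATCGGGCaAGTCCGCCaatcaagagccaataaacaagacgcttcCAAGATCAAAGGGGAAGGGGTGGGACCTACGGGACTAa
The second stretch is the part of the Slc25a36 promoter region upstream of the gene start, at chr9:97111158-97111320 on the minus strand. It held 1 shared footprint, and the capitals mark it.
Slc25a36 region: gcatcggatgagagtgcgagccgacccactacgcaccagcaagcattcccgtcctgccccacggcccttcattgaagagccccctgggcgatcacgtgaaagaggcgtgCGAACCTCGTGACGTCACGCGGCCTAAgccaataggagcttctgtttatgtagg
That footprint holds TGACGTCA, the palindrome bound by factors of the CREB family.

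The carriers of adenine nucleotides and phosphate feed ATP synthesis, and 6 of 8 had an open promoter. Slc25a3 encodes the phosphate carrier that supplies ATP synthase. Its promoter at chr10:91123941-91124220 had a signal of 13.97 in replicate 1 and 10.8 in replicate 2 (12.4 ± 2.23, SD, n = 2). Among the ADP/ATP carriers, Slc25a4, the form known from heart and muscle, had 7.40 and 9.07 (8.24 ± 1.18, SD, n = 2). Slc25a5, the form of most other tissues, had 4.89 and 3.79 (4.34 ± 0.779, SD, n = 2) at chrX:36795441-36795680. The libraries of these 2 genes did not overlap, and Slc25a4 was stronger by 1.51-fold in replicate 1 and by 2.40-fold in replicate 2. The Slc25a4 region lies inside the gene, 84 bases from its start site. Slc25a31, the ADP/ATP carrier of the testis, had no promoter region in either library.

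The calcium-regulated carriers that exchange ATP-Mg for phosphate were unlike each other. Slc25a25 had a strong promoter, with 16.4 and 15.97 (16.2 ± 0.310, SD, n = 2) at chr2:32451941-32452280. That region lies 496 bases upstream of the nearest annotated start site of the gene, and a second region over the gene start had 9.85 and 10.2 (10.01 ± 0.235, SD, n = 2). The upstream region reached the window through its replicate 1 peak, and with replicate 2 alone the promoter value was 10.2. Slc25a23 had 10.1 and 13.9 (12.04 ± 2.70, SD, n = 2) at chr17:57060241-57060780, also upstream, at 378 bases from the start site. The region over its gene start was weaker, at 1.51 and 1.96, and with replicate 2 alone the promoter value was 1.96, since the upstream peak of that library lay outside the window. Slc25a24 was the weakest open promoter of the family, with 0.356 and 0.550 (0.453 ± 0.138, SD, n = 2), and Slc25a25 exceeded it 46.1-fold in replicate 1 and 29.0-fold in replicate 2, or 18.5-fold with replicate 2 taken alone. Slc25a41, which lacks the calcium-binding domain, had no promoter region, and 2056 bases separate it from the gene Slc25a23. Slc25a54, a gene 6461 bases from Slc25a24, had none either. Both closed genes of these adjoining pairs thus lie beside an open paralog, strong in 1 pair and very weak in the other.

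All 4 carriers of carboxylic and keto acids had an open promoter. Slc25a11, the oxoglutarate/malate carrier of the malate-aspartate shuttle, had 11.9 and 10.3 (11.1 ± 1.14, SD, n = 2). Its region at chr11:70646941-70647160 also falls in a promoter window of Rnf167, so the signal cannot be given to Slc25a11 alone. Slc25a10, the dicarboxylate carrier, had 6.06 and 7.05 (6.55 ± 0.696, SD, n = 2). Slc25a21, which carries oxodicarboxylates of lysine breakdown, had 2.98 and 2.82 (2.90 ± 0.112, SD, n = 2). Slc25a1, the citrate carrier of lipid synthesis, had 2.79 and 2.93, with a mean of 2.86, in a region 422 bases upstream of its start site. With replicate 1 alone its promoter value was 2.03. Within this group the shuttle and dicarboxylate carriers were above the citrate carrier in both libraries.

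Of 9 amino acid carriers 7 had an open promoter. Slc25a44, a carrier of branched-chain amino acids, led with 12.5 and 11.4 (11.96 ± 0.792, SD, n = 2) at chr3:88425121-88425340. Slc25a29, for basic amino acids, had 8.90 and 8.60 (8.75 ± 0.207, SD, n = 2) and Slc25a38, the glycine carrier of haem synthesis, 6.89 and 7.48 (7.18 ± 0.418, SD, n = 2). The carriers that link amino acid metabolism to the urea cycle and the malate-aspartate shuttle were of middle to low strength.

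Slc25a15, the ornithine carrier, had 3.37 and 4.34 (3.85 ± 0.686, SD, n = 2), and the start of a long noncoding RNA gene lies within 100 bases of that region. Its paralog Slc25a2 had no promoter region, and the nearest shared region, 5416 bases away, lies at the promoter of Taf7. Of the aspartate/glutamate carriers Slc25a13 (citrin) had 3.70 and 3.61, and Slc25a12 (aralar) had 2.28 and 2.80. Slc25a13 was higher in each library, by 1.62-fold and 1.29-fold. Of the glutamate carriers Slc25a22 had 2.33 and 2.43 (2.38 ± 0.0669, SD, n = 2) and Slc25a18 had no region. The Slc25a22 value comes from an internal start site, 4832 bases inside the gene, and the region nearest to its gene start had 1.55 and 2.18. The ornithine and glutamate pairs each held 1 open and 1 closed gene, but Slc25a15 was no longer open where peaks had to overlap by 50%, and Slc25a18 was open with windows of 2000 bases.

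The 10 carriers of cofactors and nucleotides were all open, with a median of 9.30 over the group. Slc25a42, a coenzyme A carrier, had 22.2 and 16.3 (19.2 ± 4.18, SD, n = 2) at chr8:70212321-70212880.

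Slc25a32, the folate and FAD carrier, had 10.5 and 10.8 (10.7 ± 0.239, SD, n = 2), in a region at chr15:39112621-39112940 that also lies in the promoter window of Dcaf13. The pyrimidine nucleotide carriers were close to each other, Slc25a33 at 9.76 and 10.8 (10.3 ± 0.712, SD, n = 2) and Slc25a36 at 10.19 in both libraries. Which of the 2 was higher changed between the libraries. Slc25a17, which serves peroxisomes, had a mean of 8.42, and Slc25a20, the carnitine/acylcarnitine carrier that brings fatty acids to the matrix for oxidation, had 6.18 and 5.95 (6.07 ± 0.164, SD, n = 2). The NAD carrier gene Slc25a51 had 4.39, and Slc25a16 3.80 as means of the libraries. Slc25a26, the S-adenosylmethionine carrier gene, had 2.76 and 4.52 (3.64 ± 1.24, SD, n = 2).

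The iron carriers also differed. Mitoferrin-2, encoded by Slc25a28, had a promoter signal of 23.9 and 16.4 (20.1 ± 5.32, SD, n = 2), above 99.03% of protein-coding genes. Its region does not reach the start of the gene, from which it lies 120 bases away, so that Slc25a28 was not open with windows of 100 bases, and a long noncoding RNA gene of the opposite strand starts within 100 bases of it. Slc25a37, which encodes mitoferrin-1 and is known from red cell precursors, had no promoter region. The region nearest to a coding start site of Slc25a37 was 43142 bases away at chr14:69241601-69241840, past the end of the gene, with 2.10 and 3.90. None of the 3 distal regions of Slc25a37 lay in the gene body. Whether reads can be placed uniquely across this gene was not tested, so the lack of a region need not mean closed chromatin. Of the glutathione carriers Slc25a39 had 16.6 and 12.9 (14.7 ± 2.58, SD, n = 2) and Slc25a40 4.61 and 4.85 (4.73 ± 0.169, SD, n = 2). Slc25a39 was the higher by 3.59-fold and 2.66-fold in the libraries, but with replicate 1 alone its promoter value was 3.81, below that of Slc25a40. Its strongest region lies 475 bases upstream of the nearest start site, and the region nearest to the gene start had 3.81 and 5.15, which is about the level of Slc25a40. The Slc25a40 region is shared with the promoter window of Dbf4.

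All 3 relatives of the uncoupling proteins were open. Slc25a30, named kidney mitochondrial carrier protein 1, had 11.8 and 13.1 (12.4 ± 0.884, SD, n = 2) at chr14:75786941-75787180, over the gene start. Slc25a14, its counterpart named after the brain, had 3.44 and 3.28 (3.36 ± 0.115, SD, n = 2), so the kidney-named gene was the higher by 3.44-fold and 3.99-fold. Slc25a27, the brain-associated UCP4, had 8.10 and 6.31 (7.21 ± 1.27, SD, n = 2), in a region that also lies in the promoter window of Cyp39a1. The outer-membrane member Slc25a46 had 3.41 and 3.49, in a region shared with B930094E09Rik.

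Of the 8 orphan or little known members 6 were open. Slc25a45 had 6.70 and 6.90 (6.80 ± 0.146, SD, n = 2) at an internal start site, against 0.967 and 0.867 over the gene start. Slc25a34 had 6.62 and 5.14 and its paralog Slc25a35 had 5.69 and 5.28, so that their order changed between the libraries. Slc25a48 had 5.73 and 3.89 (4.81 ± 1.30, SD, n = 2), and with replicate 2 alone 2.58, and Slc25a53 had 2.17 and 3.002 (2.58 ± 0.591, SD, n = 2). Slc25a43 had a weak region of 0.537 and 0.475 (0.506 ± 0.0440, SD, n = 2) over its start and was absent from the stricter peak list. The liver-enriched Slc25a47 had no region at either of its coding start sites. Its annotated gene start, that of a noncoding transcript, lies 162 bases from the start of Slc25a29 and inside the promoter region of that gene.

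**Figure D2:**
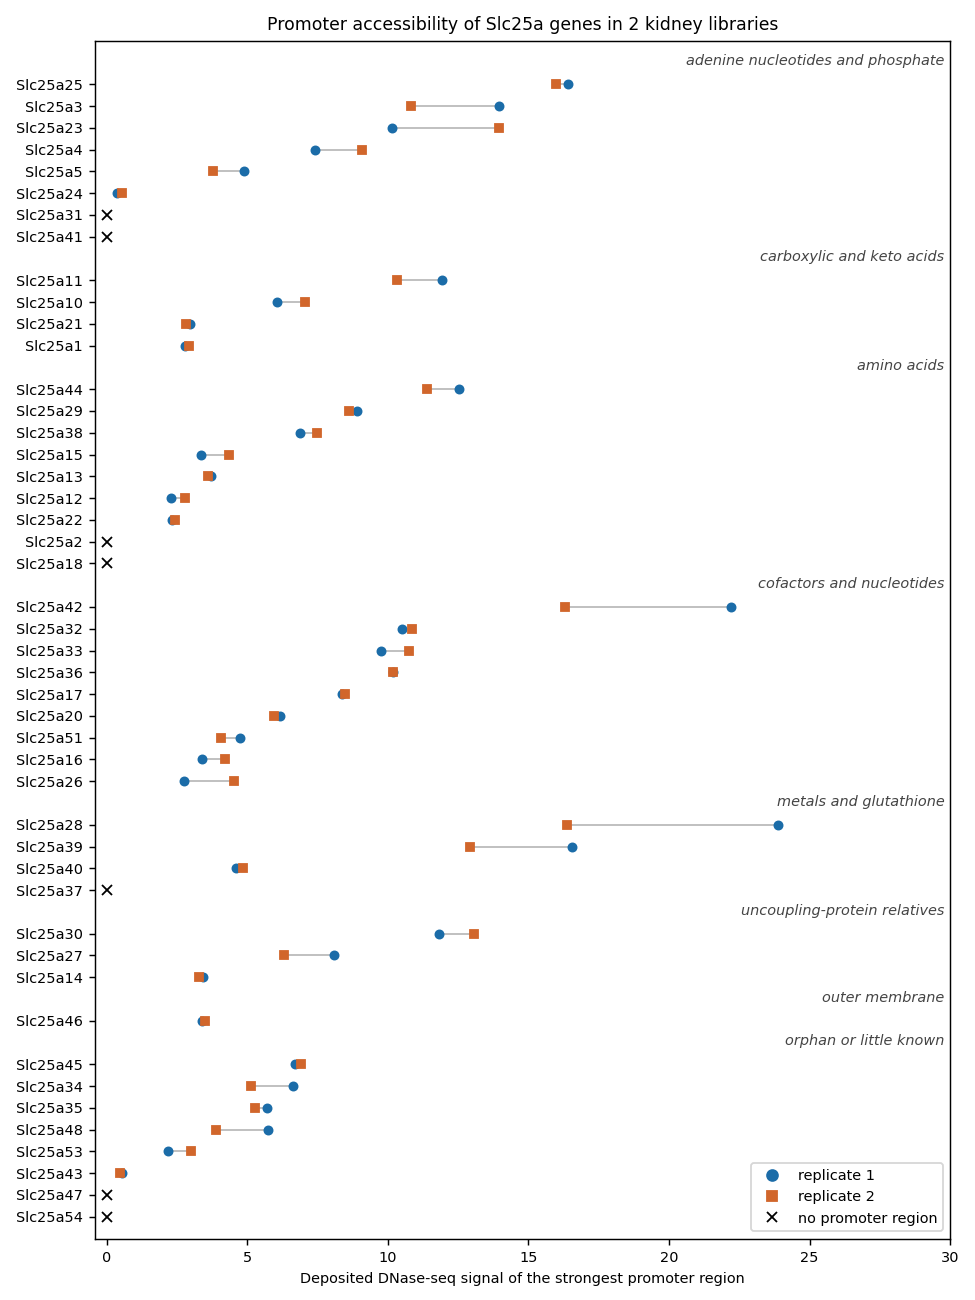
Deposited signal of the strongest promoter region (x axis) for 46 of the Slc25a genes (y axis), grouped by what the carrier moves. Circles are replicate 1, squares replicate 2 and crosses genes with no region in a promoter window. Slc25a28 and Slc25a42 lie far to the right, and the 7 crosses include Slc25a37 and Slc25a31.

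The finer deposited record was also read for the 7 closed genes. It comes from the same alignments as the peaks, so it is no independent check. No base within the promoter windows of these genes was listed at a false discovery rate (FDR) up to 0.05 in either library. Neither library alone had a peak there. Whether reads can be placed uniquely in these windows was not tested. The nearest shared regions of Slc25a18 and Slc25a47 lay 1405 and 717 bases from a coding start site, with mean signals of 0.419 and 0.817. That of Slc25a31 lay 3755 bases away with 0.992 and that of Slc25a54 17169 bases away with 0.615. For Slc25a41 it was the promoter of Khsrp, 9427 bases away, with 28.9 and 21.1. The nearest regions of Slc25a2 and Slc25a41 thus belong to promoter windows of other genes, and those of Slc25a18, Slc25a31, Slc25a47 and Slc25a54 had means below 1.

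CpG content, which goes with open promoters across the genome, was set beside these calls. The ratio of observed to expected CpG in the 1001 bases around the gene start had a median of 0.706 in carrier genes and 0.558 in all genes. Of 33 members with a ratio of 0.6 or more, 30 were open, where the background is 91.7%. Of the 14 members under 0.6, 10 were open, where the background is 38.2%. Those 10 open CpG-poor members had a median signal of 4.77, and all open CpG-poor genes had 2.64. Among the 10, Slc25a45 and Slc25a22 took their signal from an internal start site, while the ratio was read at the gene start. The regions over or nearest to their gene starts had means of 0.917 and 1.86. In the CpG-rich class the medians were 7.20 and 5.97. The annotated start of Slc25a47, used for its ratio, is noncoding and lies in the open Slc25a29 region. The other 6 closed genes spanned 0.207 to 0.753, with 4 under 0.6 and Slc25a31 and Slc25a37 above it.

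The strongest region covered the gene start in 26 of the 40 open members, where the background is 65%, and a region of any strength did in 32, where it is 72.4%. Slc25a25, Slc25a39, Slc25a23, Slc25a1, Slc25a38 and Slc25a48 had their strongest region 327 to 496 bases from the nearest coding start site, next to a weaker one over or near the start. In 5 of the 40 the strongest region also lay in the promoter window of another protein-coding gene, where the background is 16.9%. These were Slc25a11, Slc25a27, Slc25a32, Slc25a40 and Slc25a46, and in them the signal cannot be assigned to 1 gene. A total of 16 members had more than 1 region in their windows, where the background is 39.8%, up to 6 in Slc25a25, which has 8 coding start sites.

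Signals of the 40 open promoters were ordered alike in the libraries, with a Spearman rho of 0.957 across genes, which are not independent replicates and share each library. Over all open promoters rho was 0.963. No open carrier promoter differed more than 2-fold between the libraries, where the background is 2.87%. The signal was higher in replicate 1 at 20 of the 40, where the background is 37.9%. As log2 of replicate 2 over replicate 1, the median was -0.02 in the 40 and 0.12 in all open promoters.

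Large differences were found at Slc25a26 (1.64-fold higher in replicate 2), Slc25a24 (1.55-fold higher in replicate 2), Slc25a48 (1.47-fold higher in replicate 1) and Slc25a28 (1.46-fold higher in replicate 1). Taking a step as 1 tag, counting error gives an SD of 0.10 on the log2 scale at Slc25a26, whose log2 ratio was 0.71, and of 0.28 at Slc25a24, whose ratio was 0.63. Slc25a28 and Slc25a42, both strong, were higher in replicate 1. Among the strongest 10% of all open promoters 68.5% were higher in replicate 1, with a median log2 ratio of -0.15, and the part of this tilt in their values was not tested.

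**Figure D3:**
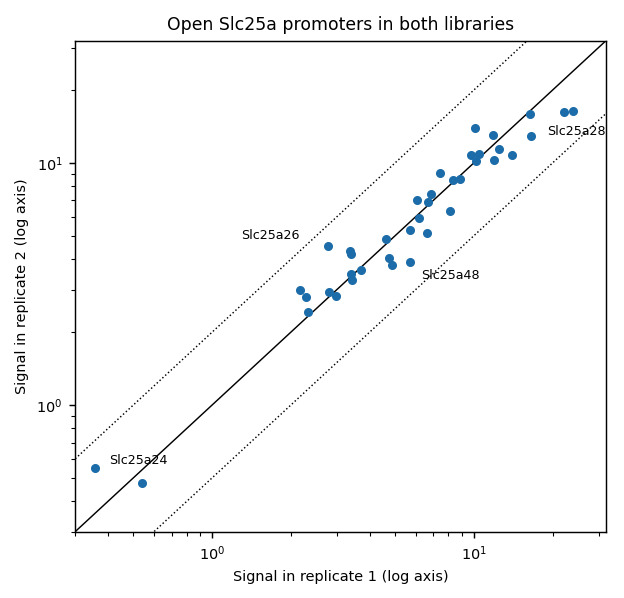
Signal in replicate 2 (y axis) against replicate 1 (x axis), both on log axes, for 39 open Slc25a promoters. The solid line marks equal signal and the dotted lines a 2-fold difference. All points lie between the dotted lines, and 4 with large differences are named.

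Distal regions were those outside every promoter window that fell in a gene or within 10 kb of it. Of the 47 members 42 had at least 1 such distal region, where the background is 72.4%, and the median was 3 regions per member against 2 over all genes. At least 5 were found at 15 members, where the background is 21.1%. They formed 158 pairs of gene and region over 154 separate regions, of which 92 lay in introns, 46 between genes and 16 over exons. Their median signal was 1.25. That of all 77375 regions outside promoter windows, at any distance from a gene, was 0.918, so the 2 sets are not alike. In 122 of the 154 the nearest coding start site was that of a carrier gene. Slc25a2, Slc25a22, Slc25a32, Slc25a41 and Slc25a46 had no distal region.

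Slc25a13 had the most distal regions, 11, of which 10 lie within its body of 176.0 kb and have means of 0.274 to 2.65. The strongest was 2658 bases upstream of the gene start, at chr6:6219681-6219980, with 4.35 and 4.03 (4.19 ± 0.228, SD, n = 2), above the gene's own promoter. Slc25a42 had 9 regions in and around a gene of 28.0 kb, and 4 of them formed a row 4386 to 8122 bases upstream. The strongest of these, at chr8:70216581-70216800, had 5.88 and 4.78 (5.33 ± 0.779, SD, n = 2). Slc25a48 also had 9, though for only 3 of them was its own start site the nearest.

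Slc25a43 had 8 distal regions despite its weak promoter. The strongest, 17432 bases into the gene, had 1.62 and 2.45 (2.04 ± 0.587, SD, n = 2), above its promoter in both libraries, and another nearby had a mean of 2.03. Slc25a10, a gene of only 7.35 kb, had 7, and 2 of them matched or exceeded its promoter as a mean. The region 2220 bases upstream, at chr11:120489421-120489820, had 8.20 and 5.02 (6.61 ± 2.25, SD, n = 2), and that 8790 bases downstream of the gene start had 7.05 and 6.39 (6.72 ± 0.471, SD, n = 2). The promoter itself had 6.06 and 7.05, with a mean of 6.55. Both distal regions were thus above it in replicate 1 and below it in replicate 2.

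Slc25a33, Slc25a26 and Slc25a21 had 7 distal regions each. Those of Slc25a33 were led by a region 1194 bases upstream with 4.91 and 3.95 (4.43 ± 0.678, SD, n = 2). Those of Slc25a26 and Slc25a21, genes of 104.3 and 484.8 kb, were weak, the strongest having 1.37 and 0.667 at Slc25a26 and 1.78 and 1.03 at Slc25a21. For 3 of the 7 at each gene the nearest coding start site was that of another gene, Lrig1 or Pax9.

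The strongest distal region of all, at chr2:32404801-32404980 beyond the end of Slc25a25, had 5.42 and 10.4 (7.93 ± 3.56, SD, n = 2), and its nearest coding start site belongs to Ptges2. Next came a region 6218 bases downstream of the Slc25a1 start, past the end of that gene, with 7.13 and 6.49 (6.81 ± 0.453, SD, n = 2). It was stronger in both libraries than the Slc25a1 promoter.

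**Figure D4:**
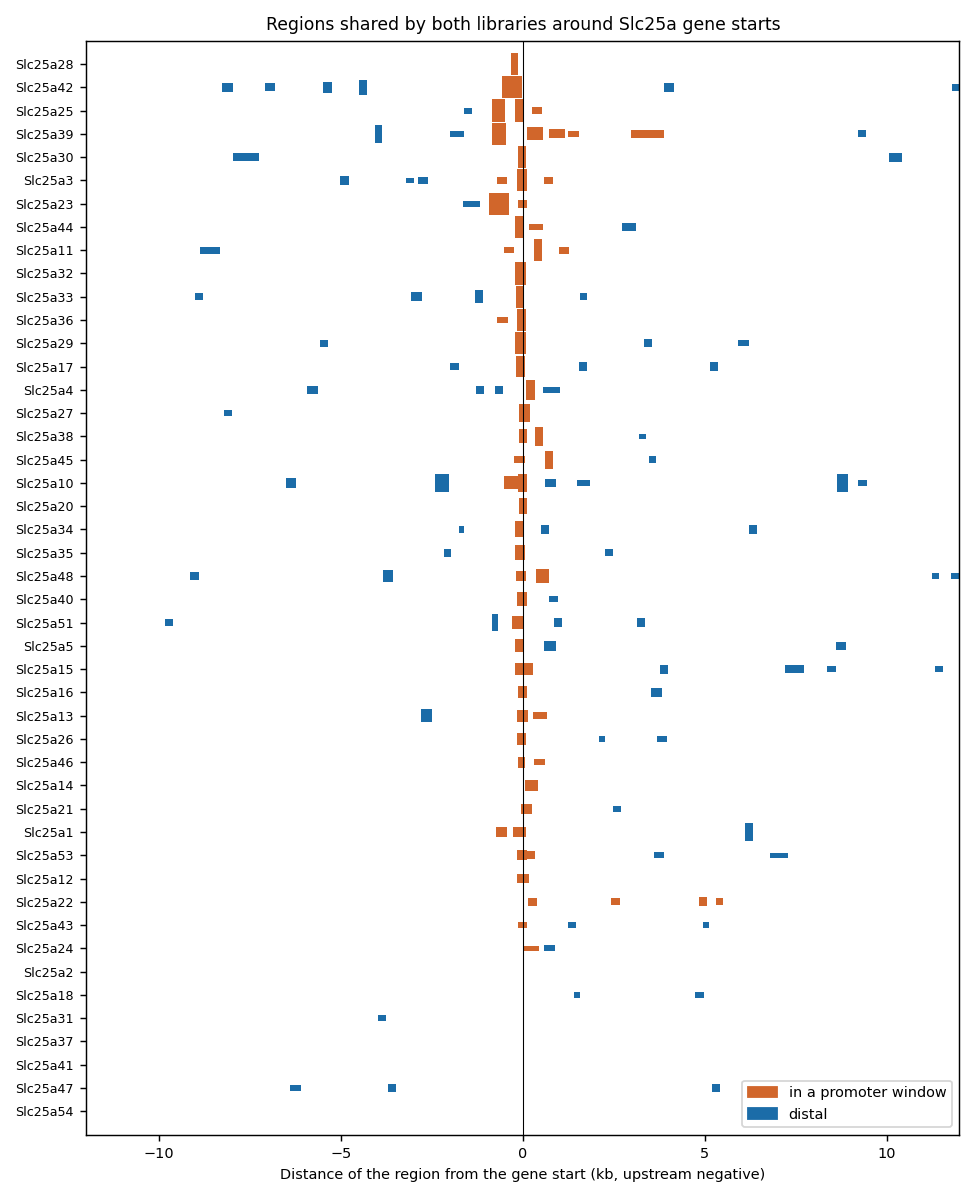
Regions shared by both libraries within 12 kb of the start of 46 Slc25a genes (x axis, kb, upstream negative), with genes ordered by promoter signal (y axis). Orange bars lie in a promoter window and blue bars are distal, bar width is the region's length and bar height rises with its signal up to a limit. Slc25a42 shows 4 upstream distal regions, and no region appears within 12 kb of the start of Slc25a37.

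Footprints shared by both libraries were found in the promoter windows of 38 of the 47 members, where the background is 58.3%. The 9 without were the 7 closed genes with Slc25a24 and Slc25a43, the 2 weakest open ones. Footprint counts thus ran close to open counts, at 38 and 40 in members and at 12633 and 13643 over all genes. Members had 207 gene-footprint pairs in all, with a median width of 20 bases, the same as over all 148535 shared footprints. The median was 4 footprints per member against 2 over all genes, and 4.5 against 4 over open promoters. Slc25a11 had the most, 15, and Slc25a25 had 14. Of the 207, 83 were centred within 100 bases of the gene start and 107 lay upstream of it. The part of local cut number in these counts was not tested.

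The footprints were then set against 14 consensus motifs in the 1001 bases around each gene start, read on both strands. A footprint counted for a match it overlapped by at least 1 base, and the windows of Slc25a29 and Slc25a47 share their matches. SP/KLF is GGGCGGGG, the GC box, and 21 of 47 members held it (44.7%, and 33.5% of all genes). A shared footprint overlapped a match in 15 members (31.9%, and 19.01% of all genes), 1 of them Slc25a47 through the site of Slc25a29. Among open promoters it did in 14 of 40 members (35%) and in 30.1% of all. Of 31 separate sites 21 overlapped a footprint, and over all genes 51.0% of matches did. CREB is TGACGTCA, and its 2 matches, at Slc25a26 and Slc25a36, were both footprinted in each library. Of all genes 3.35% held it, and 63.9% of all matches overlapped a footprint. A match is a description of letters and not evidence of a bound factor.

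Examples are printed with the motif in capitals, each being a footprint upstream of the gene start on the gene's strand, where CCCCGCCC is the GC box read on the other strand. The GC box examples come from carriers of phosphate, citrate, acylcarnitine, NAD and basic amino acids, and both CREB footprints follow. Such a footprinted box is no trait of carriers, at 35% of open members and 30.1% of all open promoters.
Slc25a3, chr10:91124101-91124127: ttggacgtGGGCGGGGatagggttgct
Slc25a1, chr16:17928246-17928277: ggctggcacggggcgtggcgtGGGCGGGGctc
Slc25a20, chr9:108662023-108662048: gggaaagagCCCCGCCCactaaggag
Slc25a51, chr4:45408771-45408795: CCCCGCCCCGCCCCGCCCctgcctg
Slc25a29, chr12:108835993-108836016: CCCCGCCCgccgcgcccgaggcca
Slc25a26, chr6:94500288-94500309: tgtggtgTGACGTCAcgagttc
Slc25a36, chr9:97111185-97111211: cgaacctcgTGACGTCAcgcggcctaa
The stretch of Slc25a51 holds 3 overlapping matches, and it and the stretch of Slc25a29 run past the footprint to the end of the match. The stretch of Slc25a29 also lies in the window around the annotated start of Slc25a47.

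The E-box CACGTG was held by 19 members (40.4%, and 17.2% of all genes), with a shared footprint on a match in 5 members (10.6%, and 3.83%), or 12.5% of open members and 6.07% of all open promoters. The overlap was partial in each, 2 to 5 bases. The 5 were Slc25a10, Slc25a13, Slc25a15, Slc25a32 and Slc25a46. NFY (GCCAAT) was held by 15 members (31.9%, and 31.2%) and footprinted in 5, which is 12.5% of open members beside 10.03% of all open promoters. ETS (CCGGAAGT) was held by 6 members (12.8%, and 7.18%). None of their 9 matches lay in a shared footprint, where 46.6% of matches over all genes did. The matches at Slc25a11 and Slc25a1 also lay outside every region shared by both libraries. Of those 9, 2 lay in a footprint of replicate 1 alone. ERR (TCAAGGTCA), the site of receptors known for control of mitochondrial genes, was held by 4 members (8.51%, and 1.89%), Slc25a28, Slc25a39, Slc25a41 and Slc25a53. None of these matches was footprinted, where 2.16% of matches over all genes were. All 4 lay outside the regions shared by both libraries, so they cannot tell whether ERR sites in open carrier DNA are footprinted.

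No member held NRF1, HNF4 (CAAAGTCCA), HNF1, DR1, ZNF143, CTCF or NFI in this window. Of all genes 1.70% held NRF1, 1.62% HNF4, 0.872% HNF1, 0.129% DR1, 0.540% ZNF143, 0.863% CTCF and 0.0692% NFI. No match says only that these letters are absent from the window.

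Other mitochondrial transport genes were read in the same way. Of 19 listed genes 17 had an open promoter, with a median signal of 7.80 among the open ones. The relatives of the family under other names were split. Mtch1 and Mtch2, of the outer membrane, had 12.3 and 12.2 as means, Ucp2 had 1.86 and 3.10 (2.48 ± 0.878, SD, n = 2), and Ucp1 and Ucp3 had no promoter region. All 14 transporters outside the family were open. The pyruvate carrier subunit gene Mpc2 had the strongest promoter among them, with 21.04 and 13.4 (17.2 ± 5.38, SD, n = 2), in a region also lying in the promoter window of Dcaf6, and Mpc1 had a mean of 9.19. The calcium uniporter gene Mcu had 9.67, the fatty acid transfer genes Cpt2 and Cpt1a 9.09 and 4.34, and the channel genes Vdac2, Vdac3 and Vdac1 8.94, 6.16 and 4.07. The values of Mpc1, Cpt1a and Vdac2 come from internal start sites, in regions centred 826, 986 and 6012 bases downstream of the gene start. With 1 library taken alone, the promoter value was 15.9 at Mpc2 (replicate 2) and 5.59 at Cpt1a (replicate 1). Those values exceed the 13.4 and 3.91 of the shared regions used here. The serine carrier gene Sfxn1 was the weakest of the 14, at 2.07.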

How the data were processed

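Members and lists were chosen with earlier results of these data known. The authors deposited, per library and on mm10, 2 peak lists with a signal per peak, a list of false discovery rates (q-values) of cutting per run of bases (up to 0.05), and footprints that all carry a p-value level of 0.01. Per the deposited text lists, each was derived from that library's alignments. The sources used here do not name aligner, callers or signal unit. Overlapping peaks (at least 1 base) of the longer lists were joined into 96735 regions holding both libraries, with the highest signal of each, and footprints likewise into 148535. Start sites came from GENCODE M21 and sequence from GRCm38.p6, to which 32619 of 32619 RefSeq promoters were identical. All members but 1, which counts in totals and is not reported here, are named. Values per library are given for the strongest and 5 weakest open promoters, closed members, the 8 with most distal regions, those with the largest library differences, shared windows and paralogs. Of 14 motif strings, those for CTCF and HNF1 were rewritten after a first search found no match in any gene's window. The CpG classes, noncoding starts, neighbours, strongest 10%, single-library footprints on motifs and the sequences printed were chosen after values were seen. With 1 group of 2 libraries no test was made. The joining step was tested on simulated peaks. Tools were Python 3.11.15, numpy 2.4.6, scipy 1.17.1, bedtools 2.31.1 and matplotlib 3.10.9. The part of CAST/EiJ alleles in mapping to mm10 was not tested.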

Additional observations from a re-analysis of the deposited data

How the results depend on the processing

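Of 40 alternative values 37 stayed within 1.5 times (counts) or 1 SD (median signal and library difference) of the value reported, and 3 moved. The SD was between libraries for the median signal (0.59) and across the 40 open promoters for the library difference (0.31), a wide limit for a median. The footprint count does not use the peak lists, so changes of list or peak overlap could not move it. Its value with windows of 100 bases was entered under both the promoter and the footprint setting. The median promoter signal rose from 4.81 to 5.48 with windows of 2000 bases (1.71 to 2.08 over all genes). The median number of distal regions fell from 3 to 1 in the gene body alone and rose to 8 with flanks of 50 kb (1 and 6 over all genes), by construction of the smaller and larger span. Between 38 and 42 members were open. Slc25a28 was lost with windows of 100 bases, Slc25a43 in the stricter list, Slc25a24 and Slc25a43 in the stronger 50% of peaks, and Slc25a15 and Slc25a24 where peaks had to overlap by 50%. Slc25a18 and Slc25a47 were gained with 2000 bases, and Slc25a47 with the gene start only, where it takes the Slc25a29 region of 8.75. Each library alone gave 40 open members and a median signal of 4.52 (without replicate 1) or 4.89 (without replicate 2). No paired analysis was possible because there is 1 group. The median number of distal regions was 3 to 4 and members with a footprint 38 to 39 when either library was left out. Counting error, if a step is 1 tag, is largest at Slc25a24 and Slc25a43, with an SD of 0.28 and 0.26 on the log2 scale.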
